A study of Mus musculus with 24 samples.

Results

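Control DN2 thymocytes were set against control DN1 thymocytes, gene by gene, on 8 of the 24 Affymetrix mouse arrays of a study of leukemia in mice. The 4 DN2 arrays and the 4 DN1 arrays came from the same 4 pools of mice, so that each pool gave 1 DN2 and 1 DN1 array. The features described are the probe sets with a mean signal of 100 or more in either stage, 14493 of the 45037 probe sets tested, and 8416 of the 18193 genes on the array have their brightest probe set among them. All pools were *Prkdc* Scid/Scid mice on an outbred ICR background, negative for the *HOX11/TLX1* transgene, aged 6 to 8 weeks per the labels (the study's methods give a wider range) and not treated with any agent. The study's cohort list puts pool 2 at 4 to 6 weeks, against the labels, and the other control pools within 6 to 8 weeks. The mice of a pool were of 1 sex, male in pools 1 and 3 and female in pools 2 and 4, and thymocytes of about 2 to 5 mice were mixed. By the cohort list, pools 1, 2 and 3 held 2 mice each and pool 4 held 5. Cells negative for CD4 and CD8 were sorted as CD44+CD25+ (DN2) or CD44+CD25- (DN1), and the labels also describe them as negative for B220 and CD3. All pools share the limits of the model. Mutant *Prkdc* blocks the joining of antigen receptor gene segments, and the DN1 gate holds every double-negative thymic cell that bears CD44 without CD25, whatever its lineage. The 8 DN2 and DN1 arrays of double mutants, here called TLX1 mice, which carry the *IgHμ-TLX1* transgene (*TLX1* under the *IgHμ* promoter) on the same *Prkdc* Scid/Scid background, were used as a comparison, and the 4 control DN3 arrays as a later stage.

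T cell development in the thymus begins in cells without CD4 or CD8. The earliest progenitors lie among the CD44+CD25- cells of DN1, where natural killer (NK) cells, other innate lymphocytes, dendritic cells and myeloid cells are also found. Under Notch signals from the thymic epithelium the progenitors take up CD25, enter DN2, divide, give up other fates and start to express the pre-T cell receptor (pre-TCR) and the recombinase, and at DN3 they lose CD44 and rearrange the TCR β chain gene. Without active *Prkdc* few cells pass this point.

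The signals are MAS5 values on a linear scale, with values under 1 set to 1 before log2, and a fold change is DN2 over DN1. *Il2ra*, which encodes CD25, had a signal of 5388, 4688, 5518 and 4766 in DN2 of pools 1 to 4, against 786, 605, 574 and 488 in DN1 (log2 fold change 3.07 ± 0.13, SE, n = 4 pools). *Cd44* had 139, 80.3, 153 and 115 in DN2, against 1805, 1567, 892 and 1577 in DN1 (log2 fold change -3.58 ± 0.27), and 13 to 18.9 in DN3. These are the genes of the sort, so their values describe the gates and are no result. *Cd44* mRNA was about 11.9-fold lower in DN2 than in DN1, although both gates take CD44+ cells. *Thy1*, a surface marker of T lineage cells, had 3661 to 5310 in DN2 and 2713 to 4297 in DN1. *Cd3e*, a chain of the TCR complex, had 1267 to 3812 and 1416 to 3572, and *Kit*, the stem cell factor receptor of early progenitors, 201 to 487 and 283 to 359. Each of these 3 genes was detected well above the array medians in both stages, and none of them passed the test between the stages. *Cd4* was at 1.26 to 3.12 in DN2 and, apart from 105 in DN1 of pool 3, at 6.43 to 15.5 in DN1.

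The DN1 array of pool 3 stood apart from the others. Over all probe sets its correlation with the other DN1 arrays was 0.905 to 0.927 and that with the DN2 arrays was 0.905 to 0.920, whereas the other DN1 arrays correlated at 0.926 to 0.944 with each other and at 0.870 to 0.896 with DN2. *Cd8a*, which the sort should exclude, reached 1862 in DN1 of pool 3 and 145 in its DN2, against at most 16.9 in DN2 and 218 in DN1 of the other pools. *Rag1* was at 3769 there, against 35.5 to 126 in DN1 of the other pools. The study describes this pool as one with many cells outside the sorting gates. The part that such cells had in its signals was not tested, so many of the results that rest on this pool are given with and without it. The median signal of an array was 15.9 to 19.2 in DN2 and 18.8 to 24.3 in DN1. The 3'/5' index, the log2 excess of 3' over 5' control probe sets as a sign of RNA quality, was 0.236 to 0.99 in DN2, the highest in pool 3, and 0.0381 to 0.412 in DN1. Its mean difference of 0.26 had an exact sign-flip p of 0.5, two-sided, where 4 pools allow no p below 0.125.

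Of the 14493 probe sets, 2364 were higher in DN2 (16.3%) and 2531 were lower (17.5%) at an adjusted p under 0.05, and 9598 were not called. Over all 45037 probe sets tested, 6.66% were higher and 8.61% lower. The probe sets bright in both stages numbered 11676, with 1738 higher and 1345 lower. Another 1088 reached 100 in DN2 only and 1729 in DN1 only, and as these had to differ in that direction to be included, their 626 higher and 1186 lower calls are no independent result. *Snx9*, with mean signals of 100.07 in DN2 and 86.27 in DN1, lay just inside the minimum, and *Vegfa*, with 99.93 and 13.06, just outside it. Read as genes by their brightest own probe set, 1797 of 18193 genes on the array were higher (9.88%) and 2047 lower (11.3%), and the median log2 fold change over all genes was -0.07. Of the 8416 genes at 100 or more, 1505 were higher (17.9%) and 1500 lower (17.8%). These shares are the background for the gene groups below.

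Among the called probe sets bright in both stages, the median log2 fold change was 0.83 for those higher in DN2 and -0.92 for those lower, and a change of 3 or more on the log2 scale was seen for 36 higher and 31 lower ones. Over all called probe sets it was seen for 149 higher and 517 lower ones, a count that includes those which reached 100 in a single stage. The same sign was present in all 4 pools for 2341 of the 2364 higher and 2524 of the 2531 lower probe sets, and the DN2 and DN1 values did not overlap for 1732 and 2007 of them. The calls were made on the same pools, so these counts are no independent result. Over all 14493 probe sets, called or not, DN2 lay wholly above DN1 for 2177 and wholly below for 2321. Leaving out pool 3 raised the counts to 4490 higher (31%) and 4022 lower (27.8%), and of the calls made with all 4 pools, 2360 higher and 2526 lower were made again. Leaving out pools 1, 2 or 4 lowered the counts, to 581, 661 and 540 higher and 1041, 1112 and 951 lower. Of the probe sets called without pool 3, pool 3 DN1 lay nearer to the DN2 mean than to the mean of the other DN1 arrays for 2801 of the higher ones (62.4%) and 2148 of the lower ones (53.4%).

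**Figure D1:**
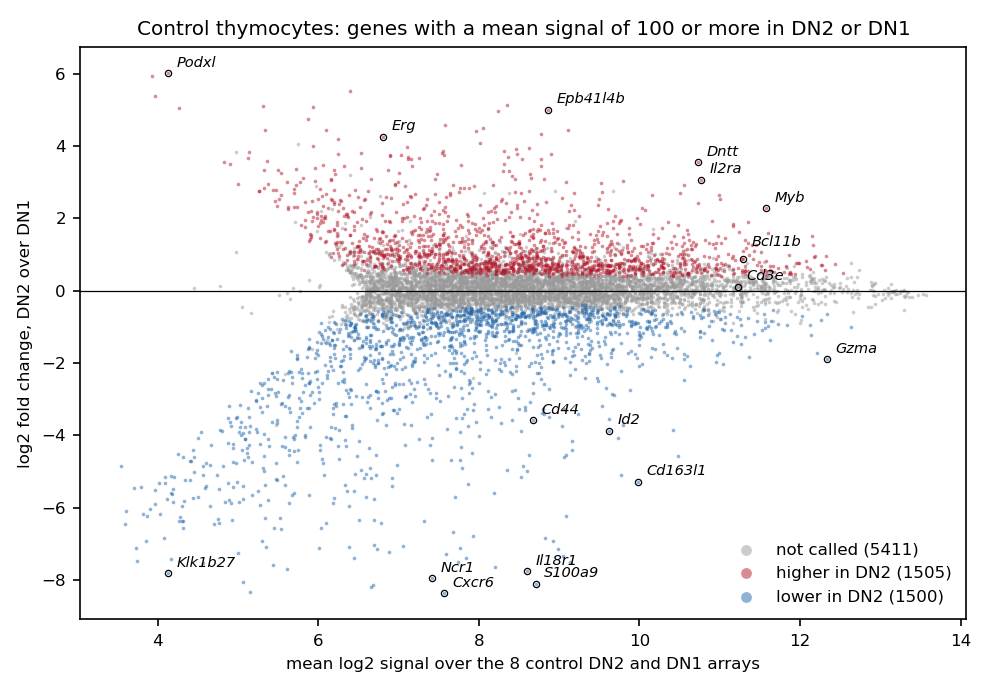
Log2 fold change (DN2 over DN1, y axis) against the mean log2 signal of the 8 arrays (x axis) for the genes read from their brightest probe set with a mean signal of 100 or more in either stage; each point is a gene and colour marks those called higher or lower. The cloud reaches further below zero, to -8.36 for *Cxcr6*, than above it, to 6.02 for *Podxl*.

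The 15 largest falls in DN2 included genes of NK cells, innate lymphocytes, neutrophils and mast cells. Among them were also *Xcl1*, a chemokine of NK and T cells (-8.18 ± 0.52), *Cpe*, a carboxypeptidase that processes peptide hormones (-8.33 ± 0.55), and the kallikrein *Klk1b27* (-7.81 ± 0.35). *Ncr1*, which encodes the NK receptor NKp46, had 10.6, 16.4, 11.2 and 7.28 in DN2, against 2790, 3558, 1333 and 3883 in DN1. All DN2 values were below the array medians and far below any DN1 value (log2 fold change -7.94 ± 0.33, adjusted p = 0.00018). *Cxcr6*, a chemokine receptor of resident NK, innate and effector lymphocytes, had 7.62, 14.2, 7.07 and 16.1 in DN2, against 4441, 3248, 1910 and 5124 in DN1 (-8.36 ± 0.23, adjusted p = 4.9e-05). *S100a9*, a calcium-binding protein abundant in neutrophils and monocytes, had 30, 36, 53.2 and 7.22 in DN2, against 6839, 7934, 6577 and 6547 in DN1 (-8.10 ± 0.43, adjusted p = 0.00029). Signals this low are close to background, so the size of these fold changes depends on the floor. With an offset of 32 added to each signal before log2, the changes were -5.97 for *Ncr1*, -6.34 for *Cxcr6* and -6.83 for *S100a9*. In DN3 *Ncr1* was at 0.653 to 8.96.

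The bases before the transcription start of these 3 genes, which are among the largest falls, are shown here. Those of *Ptcra*, the pre-TCR α gene described further on, are shown with them. The 3 genes were not taken by rank, as *Cpe*, *Xcl1* and *Klrc1* fell further than *S100a9* and *Ncr1*. Each run is the 120 bases upstream of the RefSeq start (GRCm38.p6), 5′ to 3′ on the strand of the gene. Capitals mark TGTGGT, the core recognised by RUNX factors, here in its reverse complement ACCACA, or in *Ptcra* the E-box CAGCTG, which reads the same on both strands. No marked match overlaps another.
Ncr1, chr7:4337595-4337714, plus strand: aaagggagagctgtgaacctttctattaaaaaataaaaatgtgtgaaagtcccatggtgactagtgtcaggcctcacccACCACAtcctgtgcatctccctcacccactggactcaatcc
Cxcr6, chr9:123806357-123806476, plus strand: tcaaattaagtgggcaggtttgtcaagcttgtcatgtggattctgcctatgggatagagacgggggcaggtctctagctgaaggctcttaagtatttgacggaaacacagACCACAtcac
S100a9, chr3:90695722-90695841, minus strand: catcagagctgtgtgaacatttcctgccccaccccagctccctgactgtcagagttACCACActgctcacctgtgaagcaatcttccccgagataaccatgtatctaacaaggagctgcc
Ptcra, chr17:46763713-46763832, minus strand: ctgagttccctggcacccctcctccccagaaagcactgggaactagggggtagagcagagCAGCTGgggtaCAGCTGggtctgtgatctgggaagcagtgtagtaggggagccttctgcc
Over the 250 bases before the start and on both strands, TGTGGT was present in 14.2% of 27025 mouse promoters, in 10.6% of 1224 promoters of genes higher in DN2 and in 11.7% of 1205 promoters of genes lower in DN2. CAGCTG was present in 12.8%, 10.1% and 12.9% of them. A TGTGGT match in each of the lower genes shown is therefore not typical of the genes lower in DN2. Of 8 motifs searched, these are the 2 shown, and a match is a string of letters and not a measured binding site.

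Of 18 NK cell markers, 17 were on the array, all 17 with a mean of 100 or more, and 16 were lower in DN2 and none higher. The share lower was 11.3% over all genes and 17.8% over genes that reach 100. The median log2 fold change of the 17 markers was -5.87. The receptors *Klrc1* (-8.15 ± 0.22), *Klrd1* (-7.51 ± 0.30) and *Klrk1* (-7.39 ± 0.18), which recognise MHC class I and related ligands, and the NK factor T-bet, encoded by *Tbx21* (-7.70 ± 0.50), were at 17.5 or less in every DN2 array. *Ccl5*, a chemokine of NK and effector T cells, had 37.1 to 51.3 in DN2 and 3314 to 7110 in DN1. The marker that was not called was *Nkg7*, a protein of cytotoxic granules, with 2497, 1852, 2569 and 2245 in DN2 against 3804, 5048, 1805 and 4259 in DN1 (-0.62 ± 0.30, adjusted p = 0.237, and 0.00811 without pool 3). *Gzma*, a granzyme, fell less than the receptors, to 2527, 2343, 3037 and 2884 in DN2, against 9176, 13035, 6617 and 12590 in DN1 (-1.90 ± 0.22, adjusted p = 0.0032). The summed signal of the 17 markers was 4892 to 6309 in DN2 and 26346 to 66011 in DN1, and *Gzma* and *Nkg7* made up most of it in DN2. In bulk samples, fewer cells of a type and less RNA per cell cannot be told apart.

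**Figure D2:**
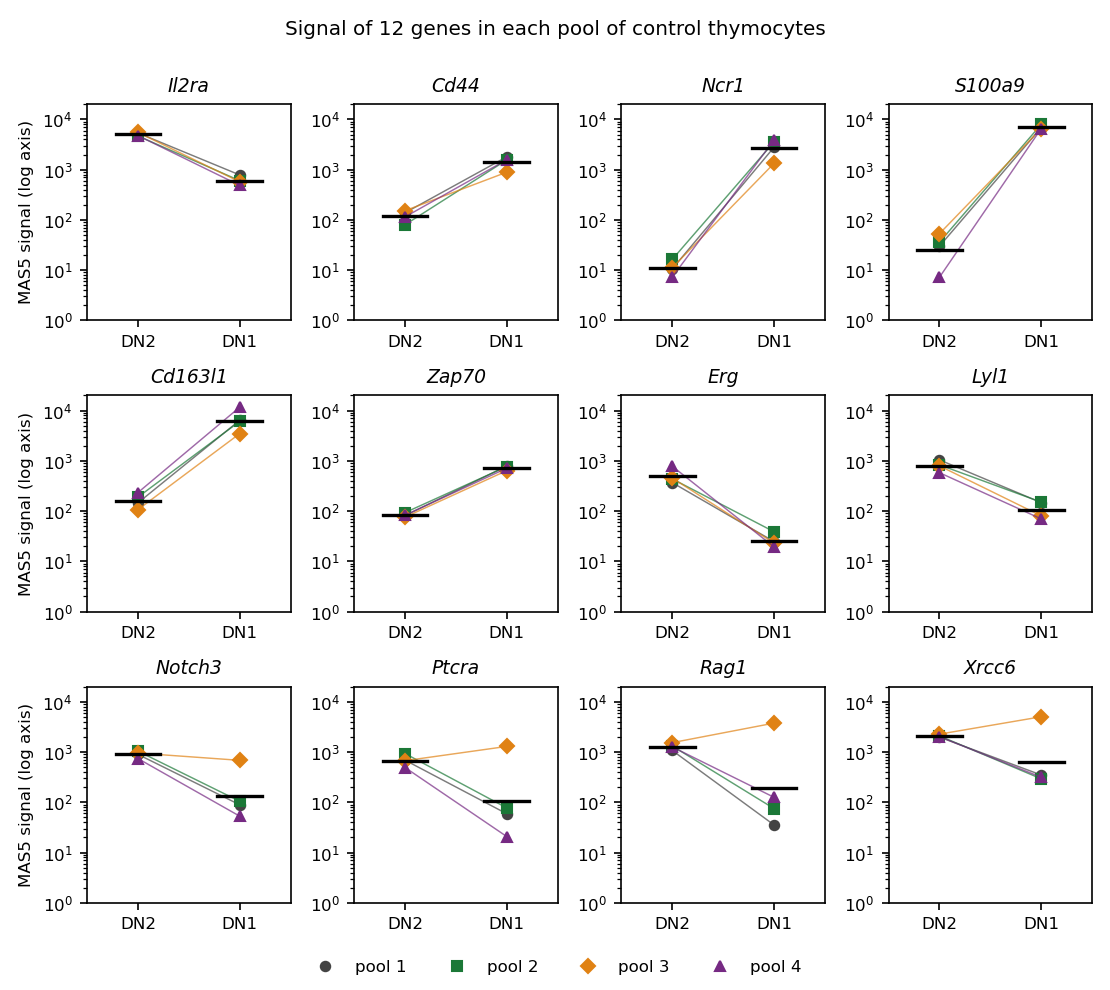
MAS5 signal (log axis) of 12 named genes in the DN2 and DN1 arrays of the 4 pools, 1 panel per gene, with DN2 on the left and lines joining the arrays of a pool. *Ncr1* and *S100a9* are high in every DN1 array, while DN1 of pool 3 is the array in which *Rag1* (3769) and *Ptcra* (1296) are high.

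Markers of innate lymphoid and γδ T cells fell in the same arrays. Of 13 such genes 10 were on the array and 9 reached 100, with 8 lower and none higher, and a median of -4.39. *Il18r1*, a receptor chain for IL-18, had 18.2, 24.9, 19 and 56.5 in DN2, against 6977, 6974, 2759 and 7927 in DN1 (-7.76 ± 0.26, adjusted p = 0.0001). *Cd163l1*, a scavenger receptor family member expressed by γδ T cells, had 146, 190, 107 and 234 in DN2, against 6412, 6100, 3480 and 11681 in DN1 (-5.28 ± 0.15, adjusted p = 4.9e-05). In both genes the lowest DN1 value was that of pool 3 and was still more than any DN2 value. The costimulator *Icos* (-6.68 ± 0.34), the IL-1 receptor *Il1r1* (-6.91 ± 0.41) and the factor *Maf* (-5.16 ± 0.30) fell as well. *Il17rb*, a receptor chain for IL-25, had 816 to 1011 in DN2 and 387 to 839 in DN1 and was not called, nor was *Sox13*, a factor of γδ T cells. The list's summed signal was 1387 to 1726 in DN2 and 9266 to 31005 in DN1.

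Of 19 myeloid markers 18 were on the array and 13 reached 100, with 12 lower and none higher and a median of -2.01. *S100a8*, the partner of *S100a9*, had 69, 84.9, 100 and 5.21 in DN2, against 6795, 8206, 7232 and 8058 in DN1 (-7.50 ± 0.71, adjusted p = 0.00151). *Lyz2*, the lysozyme of macrophages and granulocytes, fell less and kept a clear DN2 signal, with 730, 605, 733 and 764 in DN2 against 2576, 1652, 1796 and 3563 in DN1 (-1.70 ± 0.17, adjusted p = 0.00189). The cathepsin *Ctss* (-2.75 ± 0.28) and the Fc receptor *Fcgr3* (-3.68 ± 0.29) lay between them. Other neutrophil products were among the 15 largest falls, *Pglyrp1* (-7.57 ± 0.64), which binds peptidoglycan, and *Chil3* (-7.54 ± 0.33), a chitinase-like protein. The summed signal was 1680 to 2169 in DN2 and 18870 to 24190 in DN1, so that here pool 3 was not far from the other DN1 arrays.

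Of 16 dendritic cell and MHC class II genes 14 were on the array and 10 reached 100, with 11 lower, none higher and a median of -2.86. *Itgax*, which encodes CD11c, had 21, 28.8, 13.7 and 14.3 in DN2, against 915, 1244, 569 and 593 in DN1 (-5.41 ± 0.13, adjusted p = 3.7e-05). *Irf8*, a factor of dendritic and myeloid cells, had 45.6, 57.9, 27.2 and 35 in DN2, against 1081, 1490, 693 and 945 in DN1 (-4.67 ± 0.12, adjusted p = 3.9e-05). Neither gene overlapped between the stages. *H2-Aa* (-3.49 ± 0.16), *H2-Eb1* (-3.22 ± 0.15) and *Cd74* (-3.30 ± 0.15), for the class II chains and their invariant chain, and *Siglech*, a marker of plasmacytoid dendritic cells (-3.78 ± 0.31), fell too. Of 10 mast cell and basophil genes 8 were on the array and only 3 reached 100. Of the 8, 7 were lower, among them *Mcpt8* of basophils (-4.57 ± 0.43) and the chymase *Cma1* (-4.70 ± 0.62), and *Mcpt1*, a mucosal mast cell protease outside the list, fell by 8.06 ± 0.56 on the log2 scale. *Cpa3*, a carboxypeptidase of mast cells that is also expressed in early progenitors, was the exception, with 1512, 1216, 2180 and 2017 in DN2 against 568, 483, 320 and 298 in DN1 (2.07 ± 0.29, adjusted p = 0.0059), and 270 to 581 in DN3.

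Chemokine and homing receptors were mostly lower in DN2. Of 16 genes 14 were on the array and 9 reached 100, with 11 lower, 2 higher and a median of -2.87. *Ccr2*, a receptor for monocyte chemokines, had 27.9, 18.6, 11.3 and 20.4 in DN2, against 3458, 3281, 1165 and 3280 in DN1 (-7.11 ± 0.16, adjusted p = 3.7e-05). *Itgae*, the αE chain of the integrin that binds E-cadherin, had 26.5, 17.8, 19.3 and 20 in DN2, against 5232, 5114, 1963 and 5725 in DN1 (-7.65 ± 0.26, adjusted p = 0.0001), and its partner chain *Itgb7* fell by 4.99 ± 0.35. In these genes DN1 of pool 3 was the lowest DN1 array, at more than 10 times its own DN2 value. *Ccr9*, the receptor for the thymic chemokine CCL25, had 4.87, 9.42, 127 and 10.8 in DN2, against 467, 328, 1180 and 576 in DN1 (-5.17 ± 0.51, adjusted p = 0.00168), with the highest value of each stage in pool 3. The 2 higher genes were *Cxcr4*, the receptor for CXCL12 (1.22 ± 0.20), and the integrin chain *Itga4* (0.64 ± 0.15).

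The genes that rose most in DN2 were of mixed kind, and most had DN1 signals near background. *Epb41l4b*, a protein of the band 4.1 family at the membrane skeleton, had 2613, 2745, 2433 and 2743 in DN2, against 142, 137, 60.2 and 38.1 in DN1 (5.01 ± 0.33, adjusted p = 0.0005). *Myl10*, a myosin light chain of precursor lymphocytes, had 2036, 1422, 1543 and 1849 in DN2, against 48.5, 72.3, 90.1 and 26.1 in DN1 (4.98 ± 0.34, adjusted p = 0.00058). Both were at a similar level in DN3, with 2430 to 3630 for *Epb41l4b* and 1667 to 2700 for *Myl10*. *Mpzl2*, an immunoglobulin-like adhesion molecule, had 1020, 1867, 1950 and 3726 in DN2, against 60.6, 68.6, 251 and 8.87 in DN1 (5.13 ± 0.86, adjusted p = 0.0109). *Ppic*, a cyclophilin, had 831 to 1050 in DN2 and 21.9 to 53.5 in DN1 (4.59 ± 0.22). No DN2 value of these 4 genes overlapped with DN1, and the pools differed most in *Mpzl2*.

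The largest fold changes belonged to dimmer genes. *Podxl*, a sialomucin of progenitors and endothelium, had 170, 136, 111 and 155 in DN2, against 0.459, 7.07, 1.54 and 2.02 in DN1 (6.02 ± 0.54, adjusted p = 0.00123, and 2.32 with the offset of 32). *C1qtnf1*, a secreted protein with a C1q domain (5.94 ± 0.50), *Tslp*, a cytokine related to IL-7 (5.38 ± 0.68), and *Acy3*, an aminoacylase (5.04 ± 0.60), had DN1 signals below 10 in all pools. *Bpifc* of the lipid-binding BPI family (5.52 ± 0.55), the tight junction protein *Cldn2* (5.10 ± 0.49), *Uaca* (5.08 ± 0.85) and *Gfra1*, a receptor chain for GDNF (4.74 ± 0.73), followed. *Sytl4*, a vesicle protein (4.45 ± 0.38), and *Mdfi*, an inhibitor of myogenic factors (4.45 ± 0.49), closed the list of the 15 largest rises. The remaining one, *Trbv13-2*, a variable segment of the TCR β locus, had 1657, 1458, 1723 and 622 in DN2, against 83.1, 45.6, 227 and 11 in DN1 (4.51 ± 0.43, adjusted p = 0.00153).

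The transcription factors of the T lineage moved in both directions. Of 15 genes 14 were on the array, all 14 with a mean of 100 or more, with 5 higher, 4 lower and a median of -0.05. Without pool 3, 8 were higher and 6 lower, with a median of 0.45. Of the probe sets that reach 100, 31% were higher and 27.8% lower in that fit. *Myb*, which progenitors need to enter the T lineage, had 6792, 6527, 7490 and 6315 in DN2, against 1220, 1362, 3968 and 564 in DN1 (2.28 ± 0.37, adjusted p = 0.0101). *Runx1*, a factor of progenitors and T cells, rose to 356, 337, 566 and 338 in DN2, against 106, 89.1, 181 and 111 in DN1 (1.73 ± 0.12, adjusted p = 0.00061). *Bcl11b*, which seals T lineage commitment, had 3291, 3377, 3492 and 3438 in DN2, against 1764, 1600, 2147 and 1891 in DN1 (0.89 ± 0.12, adjusted p = 0.00461). None of these values overlapped, and the DN1 array of pool 3 was the one nearest to DN2 in all of the 3 genes. *Gfi1*, a repressor, rose by 1.70 ± 0.30. *Gata3*, a T lineage factor that innate lymphocytes also use, was lower, with 612, 687, 563 and 479 in DN2 against 1032, 1132, 644 and 731 in DN1 (-0.57 ± 0.13, adjusted p = 0.0337). *Zbtb7b*, the factor of CD4 T cells (-3.49 ± 0.50), and *Ikzf1*, which encodes Ikaros (-0.73 ± 0.12), were lower as well. *Lef1* was lower (-1.28 ± 0.27, adjusted p = 0.0234) and highest in both stages of pool 3, with 377 in DN2 and 1834 in DN1. *Satb1*, a chromatin organiser, was not called (-0.01 ± 0.29) and was higher without pool 3 (0.39, adjusted p = 0.0129).

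*Erg*, *Lyl1* and *Nfe2*, which encode factors of blood progenitors, were higher in DN2 than in DN1. *Nfe2* had 1624, 1246, 1209 and 1205 in DN2, against 148, 125, 101 and 66 in DN1 (3.64 ± 0.17, adjusted p = 0.00023), and 656 to 1036 in DN3. *Erg* had 369, 438, 455 and 781 in DN2, against 24.8, 38.9, 23.1 and 19.4 in DN1 (4.26 ± 0.30, adjusted p = 0.00061). *Lyl1* had 1047, 833, 795 and 582 in DN2, against 148, 151, 80.6 and 70.1 in DN1 (2.91 ± 0.16, adjusted p = 0.00033), and 136 to 167 in DN3, so that it was high in DN2 alone of the 3 stages. In the progenitor list as a whole, 18 of 18 genes were on the array and 9 reached 100, with 5 higher, 3 lower and a median of 0.27. Without pool 3, 4 were higher and 5 lower, with a median of 0.05. *Bcl11a*, a factor of lymphoid progenitors, rose by 0.92 ± 0.15. *Flt3*, a receptor of multipotent progenitors and dendritic cells, had 2.2 to 4.97 in DN2 and 32.3 to 132 in DN1 (-4.26 ± 0.38). *Spi1*, which encodes the myeloid factor PU.1, had 47 to 91.7 in DN2 and 64.9 to 132 in DN1 and did not pass the test (-0.59 ± 0.16, adjusted p = 0.0515, and 0.0355 without pool 3).

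Of the Notch genes, 13 of 14 were on the array and 10 reached 100, with 3 higher, 2 lower and a median of -0.20. With pool 3 left out, 4 were higher and 4 lower, with a median of -0.23. *Notch1*, the receptor that drives T lineage entry, had 3977, 3700, 3621 and 3663 in DN2, against 863, 754, 2675 and 539 in DN1 (1.93 ± 0.36, adjusted p = 0.0164). *Notch3* had 900, 1044, 956 and 743 in DN2, against 89.4, 105, 685 and 53.1 in DN1 (2.73 ± 0.53, adjusted p = 0.0178). *Hes1*, a repressor induced by Notch, had 739, 961, 536 and 543 in DN2, against 117, 181, 158 and 91.8 in DN1 (2.35 ± 0.17, adjusted p = 0.00069). The groups did not overlap in these genes, and pool 3 was the highest DN1 array in both receptors. *Notch2*, the receptor of B lineage and myeloid cells, was lower (-1.17 ± 0.23), as was the Notch target *Nrarp* (-0.89 ± 0.19). The target *Myc* had 785 to 1428 in DN2 and 540 to 1013 in DN1 and was not called (0.65 ± 0.22, adjusted p = 0.103, and 0.0241 without pool 3).

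E proteins, the basic helix-loop-helix factors of lymphoid genes, and the Id proteins that block them changed unequally. Of 7 genes, all on the array and 4 at 100 or more, 2 were higher and 1 was lower, with a median of 0.46. The list median was -0.89 in pool 3 and 0.57, 1.11 and 0.48 in pools 1, 2 and 4. With pool 3 left out, 4 were higher and 1 lower. *Id2*, the inhibitor that NK and innate lymphoid cells need, had 139, 192, 250 and 271 in DN2, against 2786, 2800, 1917 and 5525 in DN1 (-3.87 ± 0.25, adjusted p = 0.00044). *Tcf12*, which encodes HEB, had 2304, 2159, 3759 and 3321 in DN2, against 1042, 967, 3362 and 1296 in DN1 (0.96 ± 0.21, adjusted p = 0.0279). *Tcf4* rose by 0.65 ± 0.14. *Tcf3*, which encodes E2A, had 804, 914, 386 and 596 in DN2, against 297, 339, 667 and 298 in DN1 (0.77 ± 0.37, adjusted p = 0.237). Without pool 3, in which DN1 was the higher array, *Tcf3* was called, at 1.29 with an adjusted p of 0.00091.

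Recombination genes called in the test were all higher in DN2, and in pool 3 *Rag1*, *Xrcc6* and *Lig4* ran the other way, at a list median of 0.40 there against 1.35 to 1.62 in the other pools. *Rag1*, the catalytic recombinase subunit, had 1075, 1320, 1541 and 1266 in DN2, against 35.5, 75.2, 3769 and 126 in DN1 (2.77 ± 0.95, adjusted p = 0.108), and without pool 3 the log2 fold change was 4.13 with an adjusted p of 0.00041. *Rag2*, its partner, had 304, 304, 396 and 389 in DN2, against 19.7, 12.3, 184 and 8.6 in DN1 (3.80 ± 0.66, adjusted p = 0.0127). *Dntt*, the terminal transferase that adds bases at the joints, had 5431, 5625, 6512 and 5749 in DN2, against 516, 261, 3628 and 121 in DN1 (3.56 ± 0.69, adjusted p = 0.0184). *Rag2* and *Dntt* kept apart in every pool, whereas the *Rag1* signal of pool 3 DN1 was above all DN2 values. *Xrcc6*, which encodes Ku70, was like *Rag1*, with 1989 to 2273 in DN2, 5043 in DN1 of pool 3 and 294 to 350 in DN1 of the others (1.72, adjusted p = 0.143, and 2.67 with an adjusted p of 7.2e-05 without pool 3). *Prkdc*, the kinase gene mutated in all these mice, had 363, 396, 344 and 324 in DN2, against 252, 252, 178 and 230 in DN1 (0.65 ± 0.13, adjusted p = 0.019). Its probe set measures the mRNA and does not show the mutation. Of 12 genes in the list 10 were on the array and 9 reached 100, with 5 higher, none lower and a median of 1.17, and with 9 higher without pool 3. The fit without pool 3 called 17.2% of all genes and 31% of the probe sets that reach 100 higher.

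*Ptcra*, the gene of the pre-TCR α chain whose upstream bases stand above, had 689, 933, 674 and 492 in DN2, against 59.1, 77.3, 1296 and 20.8 in DN1 (2.69 ± 0.84, adjusted p = 0.0851). Leaving out pool 3, where DN1 exceeded DN2, gave 3.90 with an adjusted p of 0.00023. DN3 had 1821 to 2261. Of 16 genes for the pre-TCR, CD3 chains and proximal signals 14 were on the array, all at 100 or more, with 5 higher, 3 lower and a median of 0.16. With pool 3 left out, 6 were higher and 5 lower, with a median of 0.20. *Trat1*, an adaptor linked to the TCR, had 1330, 1411, 1552 and 1227 in DN2, against 40.8, 83.7, 524 and 36.6 in DN1 (3.93 ± 0.57, adjusted p = 0.00641). *Themis*, a regulator of TCR signals in thymocytes, rose by 3.02 ± 0.57 and *Plcg1*, a phospholipase, by 1.12 ± 0.16. *Cd3g* had 6036 to 6675 in DN2 and 2982 to 3653 in DN1 (0.92 ± 0.13, adjusted p = 0.00531), a clear mRNA signal in cells labelled as CD3-negative. *Zap70*, the TCR kinase also used by NK cells, was lower, with 81.5, 93.6, 76 and 83.1 in DN2 against 793, 772, 641 and 716 in DN1 (-3.13 ± 0.12, adjusted p = 0.00012). The adaptor *Sh2d2a* fell by 1.61 ± 0.20.

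Of 15 T cell surface molecules, all on the array and 14 at 100 or more, 3 were higher and 7 lower, with a median of -0.46. Without pool 3, 6 were higher and 7 lower, with a median of -0.17. *Cd2*, an adhesion molecule of T and NK cells, had 8.91, 7.11, 34.9 and 9.23 in DN2, against 869, 1134, 956 and 1116 in DN1 (-6.41 ± 0.40, adjusted p = 0.00044). *Cd7*, another molecule of both lineages, had 54.4, 56.8, 39.9 and 25.4 in DN2, against 2715, 3364, 966 and 1930 in DN1 (-5.59 ± 0.26, adjusted p = 0.00023). *Cd28*, a costimulator, fell by 3.38 ± 0.17. *Cd8b1* and *Cd8a* fell by 5.11 ± 0.57 and 3.80 ± 0.51, with overlapping values because both stages of pool 3 were high. *Cd5*, a negative regulator of TCR signals, rose by 1.14 ± 0.15. *Ly6d*, a surface marker of lymphoid progenitors, had 1955, 1567, 2825 and 2355 in DN2, against 134, 118, 4326 and 137 in DN1 (2.77 ± 0.78, adjusted p = 0.0606, and 3.90 with an adjusted p of 4.4e-05 without pool 3).

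DNA replication genes were higher in DN2. Of 24 genes 23 were on the array and 22 reached 100, with 12 higher, none lower and a median log2 fold change of 1.13. The share higher was 9.88% over all genes and 17.9% over genes that reach 100. *Gins2*, a subunit of the replicative helicase complex, had 534, 426, 455 and 408 in DN2, against 123, 143, 313 and 88.9 in DN1 (1.61 ± 0.28, adjusted p = 0.0129). *Prim1*, the primase, had 2016, 2118, 2252 and 1832 in DN2, against 694, 889, 1750 and 629 in DN1 (1.17 ± 0.21, adjusted p = 0.0146). Neither gene overlapped between the stages, and pool 3 was the highest DN1 array in both. *Mcm7*, a helicase subunit, rose by 0.98 ± 0.19, and *Fen1*, which processes the lagging strand, by 1.19 ± 0.20. Without pool 3 there were 21 higher genes and the median was 1.52. That fit called 17.2% of all genes and 31% of the probe sets that reach 100 higher.

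Mitosis genes differed between the stages in pools 1, 2 and 4, while the DN1 array of pool 3 was high. Of 20 genes 19 were on the array, all at 100 or more, and 1 was higher with all 4 pools, *Tpx2* of the spindle, with 590, 595, 629 and 479 in DN2 against 139, 243, 644 and 125 in DN1 (1.32 ± 0.34, adjusted p = 0.0488). The list's median log2 difference within pools 1 to 4 was 1.62, 0.94, -0.45 and 1.81. Without pool 3 all 19 genes were higher with a median of 1.47. The share higher without pool 3 was 17.2% over all genes and 31% over the probe sets that reach 100. *Cdc20*, the activator of the anaphase complex, had 2097, 2343, 2252 and 2044 in DN2, against 686, 1082, 2783 and 662 in DN1 (1.01 ± 0.32, adjusted p = 0.0906, and 0.00077 without pool 3). *Mki67*, the proliferation antigen, had 2289 to 2771 in DN2, and 3099 in DN1 of pool 3 against 1133 to 2086 in DN1 of the others (0.57 ± 0.23, adjusted p = 0.167). The summed signal of the list was 18070 to 21328 in DN2 and 5733 to 28976 in DN1.

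**Figure D3:**
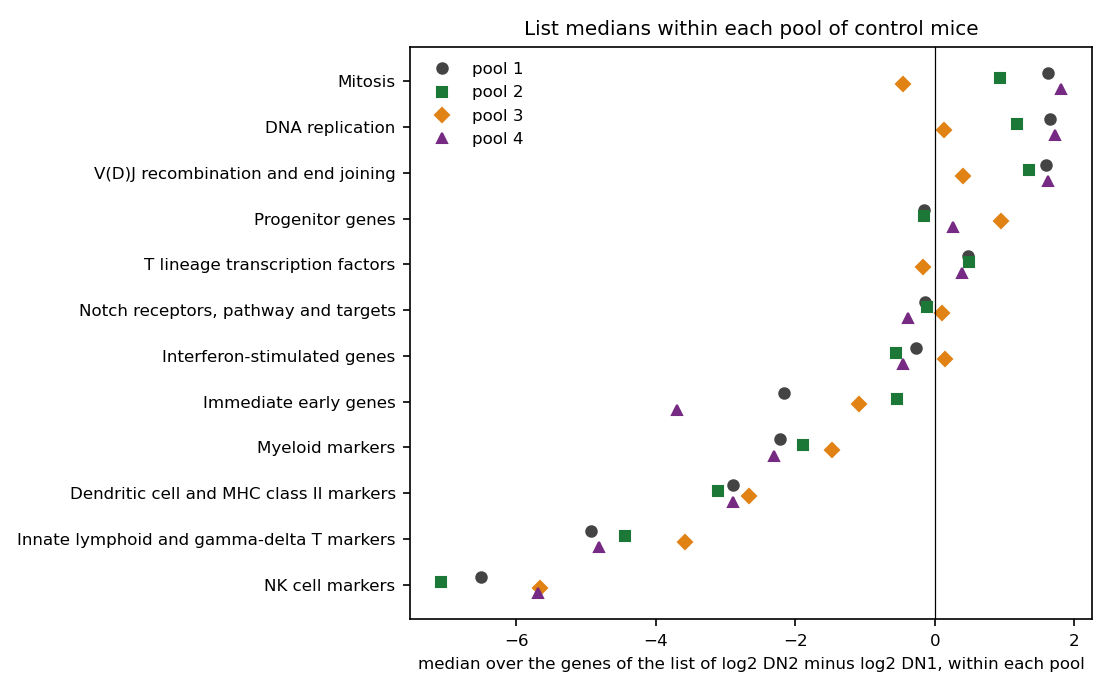
Median log2 difference, DN2 minus DN1, over the genes of a list within each of the 4 pools, with 1 row per list and 1 point per pool. In mitosis genes pool 3 lies at -0.45 and the other pools at 0.94 to 1.81, while NK cell markers lie at -7.08 to -5.66 in all pools.

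Immediate early genes, which respond within minutes to stimulation and to handling, were lower on balance. Of 18 genes, all on the array and 16 at 100 or more, 8 were lower and 1 was higher, with a median of -1.85. With pool 3 left out, 10 were lower and 2 higher. The pools differed widely, with medians of -2.17, -0.54, -1.09 and -3.70 in pools 1 to 4. The summed signal of the list was 4843, 10677, 4113 and 1675 in DN2, against 10091, 13089, 6305 and 7778 in DN1. *Klf2*, a factor of resting and migrating lymphocytes, had 111, 97.1, 74.4 and 105 in DN2, against 1858, 1930, 647 and 1682 in DN1 (-3.87 ± 0.20, adjusted p = 0.00029). *Egr3* (-6.45 ± 0.57) and *Egr2* (-3.64 ± 0.36), induced by antigen receptor signals, and *Fosl2* (-5.94 ± 0.50) and *Klf6* (-1.89 ± 0.25) fell in all pools. *Ier3* rose, with 178, 396, 122 and 95 in DN2 against 40.8, 75.9, 30.8 and 26.9 in DN1 (2.08 ± 0.17, adjusted p = 0.00092). In both stages *Ier3* was highest in pool 2 and lowest in pool 4.

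Genes of survival, glycolysis and the interferon response changed in both directions. In the *Bcl2* family and death receptors, 12 of 15 genes were on the array and 10 at 100 or more, with 2 higher, 2 lower and a median of -0.09. *Pmaip1*, which encodes the pro-apoptotic Noxa, had 173, 221, 250 and 294 in DN2, against 45.9, 49.5, 95.9 and 61.7 in DN1 (1.93 ± 0.19, adjusted p = 0.00161). *Casp8* rose by 0.50 ± 0.12, and *Bcl2l11*, which encodes Bim (-0.86 ± 0.19), and *Bcl2l1* (-0.65 ± 0.15) were lower. *Bcl2*, the survival factor, had 1745, 1468, 1986 and 1588 in DN2, against 2187, 2353, 763 and 2151 in DN1 (-0.02 ± 0.34, adjusted p = 0.984, and -0.48 with 0.0156 without pool 3). Of 15 glycolysis genes 12 were on the array, all at 100 or more, with 1 higher, 4 lower and a median of -0.11. The platelet phosphofructokinase *Pfkp* had 141, 143, 127 and 138 in DN2, against 1292, 1337, 672 and 1575 in DN1 (-3.08 ± 0.19, adjusted p = 0.00042), and the glucose transporter *Slc2a3* fell by 1.13 ± 0.13. Of 19 interferon-stimulated genes 16 were on the array and 15 at 100 or more, with 2 higher, 4 lower and a median of -0.34. The list median was -0.27, -0.55 and -0.46 in pools 1, 2 and 4 and 0.15 in pool 3. With pool 3 left out, 4 were higher and 8 lower, with a median of -0.45. *Ifit3* fell by 2.00 ± 0.16 and *Mx1* by 1.49 ± 0.21, while *Oas2* (1.43 ± 0.13) and *Oasl2* (1.38 ± 0.18), of the oligoadenylate synthetase family, rose.

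Of 14 B lineage genes 13 were on the array and 5 reached 100, with 2 higher, 3 lower and a median of -0.16. The 2 higher ones, *Vpreb1* and *Igll1*, encode the surrogate light chain that pre-B cells use. *Vpreb1* had 333, 342, 286 and 342 in DN2, against 11.4, 22.4, 23.8 and 16.3 in DN1 (4.20 ± 0.24, adjusted p = 0.00036). *Pax5* and *Cd79a*, which define B cells, were at 14.7 or less in DN2 and 24.2 or less in DN1. *Ighm* was lower (-2.65 ± 0.18), with 341 to 707 in DN1. Of 16 stromal, epithelial and endothelial genes, all on the array, 3 reached 100, with 2 higher, none lower and a median of -0.38. The higher ones were *Epcam*, an epithelial adhesion molecule, with 671, 554, 521 and 528 in DN2 against 96.6, 88.7, 64.9 and 53.9 in DN1 (2.93 ± 0.15, adjusted p = 0.00026), and *Pdgfrb*, a receptor of mesenchymal cells, with 912, 1174, 755 and 1638 against 76.9, 80.4, 164 and 78.5 (3.51 ± 0.33, adjusted p = 0.00151). The defining markers *Foxn1*, *Krt5*, *Col1a1* and *Cdh5* were at 28.7 or less in every DN2 and DN1 array. Of 10 erythroid genes 7 were on the array and 1 reached 100, *Tfrc*, the transferrin receptor of dividing cells, which was higher (1.25 ± 0.25, adjusted p = 0.0195), while *Ermap* was lower and the median was -0.76.

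**Figure D4:**
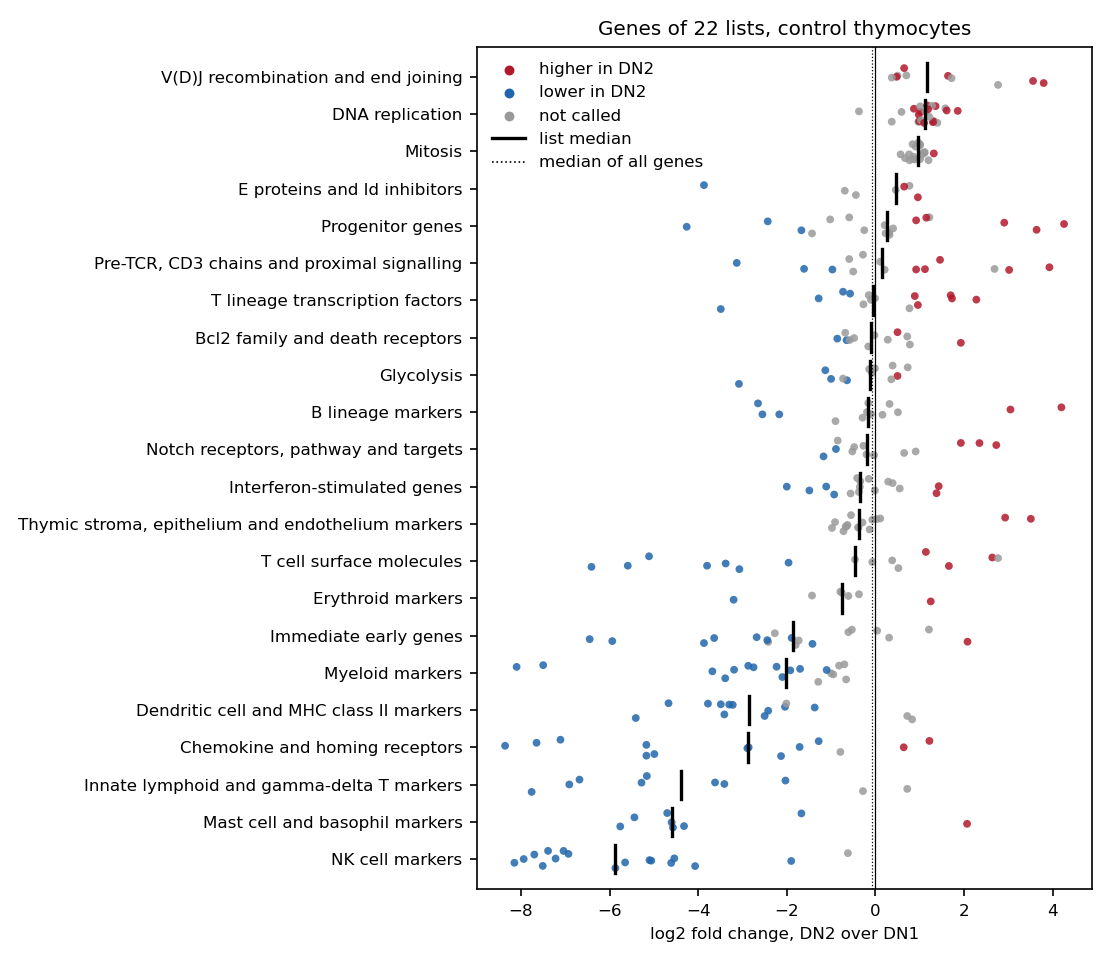
Log2 fold change (DN2 over DN1, x axis) of each gene on the array, by list (rows), with colour for called genes, a bar at each list's median and a dotted line at the median of all genes (-0.07). NK cell markers have their median at -5.87, whereas DNA replication (1.13) and V(D)J genes (1.17) have theirs above 0.

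The probe sets called in control mice were read in TLX1 thymocytes, which are of other mice and other arrays. Within the 14493 probe sets, 4006 were higher (27.6%) and 3602 lower (24.9%) in TLX1 DN2 against TLX1 DN1. Of the 2364 probe sets higher in control DN2, 2362 had the same sign in TLX1 (99.9%) and 2188 were called in the same direction (92.6%). Of the 2531 lower ones, all 2531 had the same sign (100%) and 2429 were called (96%). None was called the other way. *Ncr1* had 9.61 to 12.2 in TLX1 DN2 and 1887 to 3680 in TLX1 DN1 (-8.06, against -7.94 in control mice). *Rag1* in TLX1 mice had 1158 to 1412 in DN2, and 3193 in DN1 of pool 2 against 46.9 to 199 in the other DN1 pools, so that here too a single pool was high. *Lyl1* had 746 to 930 in TLX1 DN2 and 97.2 to 204 in TLX1 DN1.

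A difference of the stage effect between the genotypes was tested directly, as an interaction over the 16 arrays with limma. No probe set was called of 45037, at a lowest adjusted p of 1, and 1420 had an unadjusted p under 0.05. *Podxl* rose by 6.02 in control and 4.23 in TLX1 mice (interaction -1.79, unadjusted p = 0.0354), and *Erg* by 4.26 in control mice, with an interaction of -1.08 (unadjusted p = 0.0204). Neither passed the adjustment, which does not show that the genotypes were alike.

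**Figure D5:**
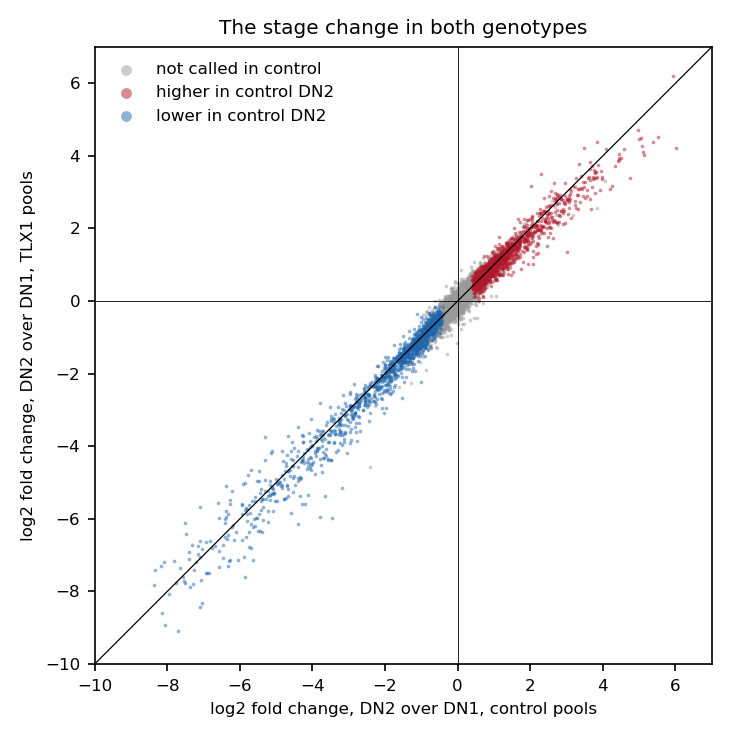
Log2 fold change, DN2 over DN1, in control mice (x axis) against that in TLX1 mice (y axis) for the genes with a mean signal of 100 or more in either control stage, with the line of equality. *Ncr1* lies at -7.94 and -8.06 and *Podxl* at 6.02 and 4.23.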

How the data were processed

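RNA of sorted thymocytes was hybridised to Affymetrix mouse arrays, and the intensity values, deposited on a linear scale, are MAS5 signals, for which the submitters' processing notes name the Affymetrix Expression Console, with a trimmed mean of about 150 on each array. The detection flags named in the study's methods were not used here. The 64 control probe sets of the array were left out of the tests. Signals under 1 were set to 1 and log2 transformed with no further scaling. Control DN2 and DN1 arrays were compared by the moderated test of limma 3.58.1 under R 4.3.3 (pool as a fixed block, trended prior), and p-values were Benjamini-Hochberg adjusted over 45037 probe sets. A probe set is called at an adjusted p under 0.05. The same holds for the interaction of stage and genotype, which was fitted over the 16 DN2 and DN1 arrays. The script was tested on simulated data in which 200 of 45037 probe sets were changed. It recovered 15% of the changes of 1 and 57% of the changes of 2 on the log2 scale, with 0 false calls. Far fewer probe sets were changed there than were called in the data, and the noise was normal with no array set apart. These rates are therefore no measure of the real comparison. A gene that was not called may still differ between the stages.

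DN2 and DN1 of a pool were sorted from the same mice, as the pool number in the titles gives it. As a check, the deviations of the 2 arrays of a pool from their stage means correlated at 0.352, 0.471, 0.2 and 0.601 in pools 1 to 4, each above the highest correlation with another pool (0.169, 0.0493, -0.0203 and -0.124). The pools are separate mice, and their number limits the precision.

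Of the probe sets, 34945 match 1 gene in the platform annotation, 932 several and 9160 none, and symbols were updated through RefSeq (GRCm38.p6). A gene is read from its brightest own probe set, by the mean log2 signal over the 8 arrays. The genes named are *Cd44* and *Il2ra*, the 15 largest rises and the 15 largest falls among called genes with a mean signal of 100 or more in either stage and 1 sign in all pools, up to 6 genes of each of 22 lists by smallest p, and genes without which a list cannot be described. The members, lists and comparisons were chosen with earlier results of these data known. Other genes named, such as *Cxcr4*, *Itga4*, *Il17rb*, *Sox13*, *Igll1* and *Ermap*, were chosen after their values were seen. A few list genes have no probe set of their own and are not analysed here. Alternatives were other normalizations, an offset of 32, no trend, no replicate block, the pool as a random block, all 24 arrays, the 3'/5' index as a covariate, array weights, other signal minimums, the methods' t-test and leaving out each pool. Text and figures were made with Python 3.11.15, numpy 2.4.6, pandas 2.3.3 and matplotlib 3.10.9.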

Additional observations from a re-analysis of the deposited data

Results flagged for a closer look

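In 318 groups of 4 arrays, the 4 DN2 or 4 DN1 values of each named gene, 27 held an array set apart from the others of its group by Dixon's test, where chance gives about 1 in 20. Of these, 14 were the DN1 array of pool 3, 5 of them on the high and 9 on the low side.

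DN1 of pool 3 was high in *Ly6d* (4326, others 118 to 137), *Xrcc6* (5043, others 294 to 350), *Satb1* (3565, others 1021 to 1175), *Tcf3* (667, others 297 to 339) and *Pdgfrb* (164, others 76.9 to 80.4). It was low in *Il18r1* (2759, others 6974 to 7927), *Itgae* (1963, others 5114 to 5725), *Ccr2* (1165, others 3280 to 3458), *Itgb7* (887, others 2734 to 3148), *Klf2* (647, others 1682 to 1930), *Rora* (335, others 1153 to 1295), *Ctss* (1194, others 2995 to 3185), *Bcl2* (763, others 2151 to 2353) and *Hhex* (211, others 416 to 454). The genes on the high side are mostly high in DN2 of all pools, and those on the low side include markers of innate lymphocytes.

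DN2 of pool 3 was high in *Runx1* (566, others 337 to 356), *Cd2* (34.9, others 7.11 to 9.23) and *Lef1* (377, others 86.8 to 98.8) and low in *Vpreb1* (286, others 333 to 342). DN2 of pool 4 was low in *Trbv13-2* (622, others 1458 to 1723), *S100a8* (5.21, others 69 to 100), *Pola1* (629, others 859 to 902), *Hk1* (665, others 1043 to 1051) and *Cd22* (7.98, others 19.6 to 23.2). Single arrays also stood apart for *Nfe2* (1624 in DN2 of pool 1, others 1205 to 1246), *Tfrc* (1453 in DN2 of pool 2, others 1657 to 1699), *Kit* (359 in DN1 of pool 1, others 283 to 286) and *Ikzf1* (3136 in DN1 of pool 2, others 2577 to 2652).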

How the results depend on the processing

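The counts of 2364 higher and 2531 lower probe sets moved by over 1.5 times under several alternatives. They were 666 and 1199 with a prior without trend and 4329 and 3945 with all 24 arrays. The methods' t-test gave 1142 and 1476 after Benjamini-Hochberg adjustment (2401 and 2562 at its own threshold). Correction for the 3'/5' index gave 4411 and 3928. That index was 0.99 in DN2 and 0.0381 in DN1 of pool 3. In pools 1, 2 and 4 it was 0.236, 0.403 and 0.441 in DN2 and 0.25, 0.412 and 0.33 in DN1. With pools as blocks, the correction thus rested largely on pool 3 and could not tell RNA quality from other traits of that pool. Leaving out 1 pool gave 540 to 4490 higher and 951 to 4022 lower. The highest counts were those without pool 3, and without pools 1, 2 and 4 they were 581, 661 and 540 higher and 1041, 1112 and 951 lower. Array weights gave 3876 higher, no filter on signal gave 3876 lower, and a mean of 100 in both stages, chosen after seeing the data, gave 1345 lower. Median centring moved the median of the probe sets to 0.31 and the split to 4548 higher and 1815 lower (71.5% higher, against 48.3%), so that small changes have a direction only relative to the scaling. Without the trend 35.7% of the calls were higher, and without pools 1, 2 and 4 it was 35.8% to 37.3%. With no replicate block, that is without the pairing of the pools, there were 1692 higher and 2002 lower. The interaction with the genotype had 0 calls under every alternative run, with 1035 to 2199 probe sets at an unadjusted p under 0.05.

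Of 159 named genes 131 were called, and over 2150 values of all results under alternatives 1807 kept their direction and side of the threshold. Without pools 1, 2 and 4, 45, 39 and 47 values lost their call, and without pool 3 none did and 23 gained one. The named genes whose sign turned were not called with all 4 pools. Leaving out 1 pool gave -0.15 (without pool 3) to 0.58 for *Cd79b*, -0.09 (without pool 1, and -0.07 without pool 4) to 0.57 for *Pecam1*, -0.07 (without pool 2) to 0.24 for *Cd3e*, -0.48 (without pool 3) to 0.21 for *Bcl2*, and -0.16 to 0.39 (without pool 3) for *Satb1*. *Bcl2* was at 0.09, 0.21 and 0.12 without pools 1, 2 and 4. The index correction, which rested largely on pool 3, put *Cd79b* at -0.20 and *Satb1* at 0.44. Median centring put *Bcl2* at 0.27 and *Satb1* at 0.28, and array weights put *Satb1* at 0.23. The causes were not tested. Of 308 list medians under alternatives 14 took the other sign, all in the lists of T lineage factors, Notch, *Bcl2* family, glycolysis, B lineage and progenitor genes, whose medians lay within 0.27 of 0. Median centring put the medians of T lineage factors, Notch genes and glycolysis genes above 0, at 0.23, 0.08 and 0.17. With the offset of 32 the largest falls and rises were smaller and kept their direction.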

Other observations

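Genes grouped by name after their values were seen add to the picture of DN2 against DN1. Of 8 *Gimap* genes, GTPases of lymphocyte survival, all reached a mean of 100 and 6 were lower in DN2, with a median log2 fold change of -3.01. *Gimap4* had 51.6, 60.1, 58.2 and 87.4 in DN2, against 5067, 6379, 2931 and 5078 in DN1 (-6.22 ± 0.21, adjusted p = 0.0001). Of 31 interleukin receptor chains 13 were lower and 3 higher. Of 12 *S100a* genes 7 were lower, among them *S100a4*, which had 49.5, 37.9, 31.7 and 51 in DN2, against 7342, 8486, 3588 and 9074 in DN1 (-7.33 ± 0.17, adjusted p = 3.7e-05). Of 76 mitochondrial ribosomal proteins, all at 100 or more, 15 were higher and none lower, with a median of 0.37. Over all genes at 100 or more, 17.9% were higher and 17.8% lower, so the share higher is near the background. Without pool 3, 48 of the 76 were higher and 3 lower, with a median of 0.40. In that fit 31% of the probe sets at 100 or more were higher and 27.8% lower. Of 46 cytosolic ribosomal proteins 3 were higher and 2 lower, with a median of -0.02. Median centring was not applied to these groups, and small medians have a direction only relative to the scaling.

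The cytokines *Il4* (-6.18 ± 0.55) and *Il13* (-4.84 ± 0.80) were at 4.35 or less in DN2, and *Il4* was at 57.9 to 303 in DN1. The neutrophil granule genes *Camp* (-7.14 ± 0.34), *Ngp* (-6.77 ± 0.24) and *Ltf* (-5.70 ± 0.20) fell. *Cdkn1a*, which encodes the cell cycle inhibitor p21, had 946, 1337, 1018 and 835 in DN2, against 96, 122, 147 and 95.3 in DN1 (3.17 ± 0.14, adjusted p = 0.00022). *Angpt1*, a ligand of the receptor Tie2, had 685 to 911 in DN2, 79.1 to 272 in DN1 and 311 to 405 in DN3, the highest of the 3 stages in DN2. *Aqp11*, a water channel, had 524, 557, 499 and 620 in DN2, against 16.9, 23.3, 431 and 8.73 in DN1 (3.97 ± 0.89, adjusted p = 0.03), with pool 3 again apart.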
